A study of Mus musculus with 8 samples.

Results

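The imprinted genes are genes of which one parental copy is silenced, and a list of 40 of them was followed through 8 NOMe-seq libraries of mouse embryonic fibroblasts (MEF). All 40 were found among the 34614 protein-coding and lncRNA genes of the mm10 RefSeq annotation, 36 as protein-coding genes and 4 (H19, Airn, Kcnq1ot1 and Meg3) as lncRNAs, and they fall into 17 clusters. Their values were taken from cytosines with at most 100 reads inside the gene and 1000 bp on either side (the locus), and within 1000 bp of both annotated ends alone (the gene ends). The list goes by gene symbol and uses no measured value.

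Imprinted genes are marked in the germ line by CpG methylation at imprinting control regions, which differs between the maternal and the paternal chromosome and is kept through later cell divisions. The marked and the unmarked copy also differ in chromatin, with the unmarked copy of a control region usually open and often the start of a long noncoding RNA that silences its neighbours. Reprogramming of somatic cells is one setting in which imprints are watched for loss. In NOMe-seq the enzyme M.CviPI methylates cytosines in GpC where no nucleosome or other protein covers the DNA, and bisulfite sequencing then reads that methylation.

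The 4 groups, with 2 libraries each, were day 1 MEFs treated with M.CviPI, day 0 MEFs treated with M.CviPI, day 1 MEFs without the enzyme, and day 0 MEFs without it. Day 1 cells were under reprogramming induced by Etv2, an ETS-family transcription factor of endothelial and blood development, and day 0 cells were the control; each sample started from bulk DNA of a cell population, so that parental alleles, and fewer open cells and less open DNA per cell, cannot be told apart. Whether replicate libraries stem from separate cultures is not stated, and p-values then measure only the spread between these samples. The delivery of Etv2 and the strain and age of the embryos are not stated in the labels.

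The libraries held 439527 to 1012656 cytosines, the median cytosine had 3 reads, and no cytosine had fewer. A call is 1 read over 1 cytosine. The imprinted loci held from 640 to 1706 cytosines and from 2062 to 5359 calls per library, and the most reads at any of them was 13. Of the 4027 cytosines of imprinted loci read in a treated library, 97.5% were read in 1 treated library alone and 12 in all 4. Runs of cytosines no more than 150 bp apart (patches) had a median of 3 cytosines, and 38 of 632 day 1 treated patches (6.01%) overlapped a day 0 treated patch. A level of an imprinted gene is thus built from short stretches of DNA that mostly differ between libraries. Pooled over markers of fibroblasts, whose identity the label gives, treated gene-end levels were 34.4 and 33.0% on day 1 and 80.0 and 52.4% on day 0, on 21 to 97 calls, and over markers of endothelium 31.2 and 20.8% on day 1 and 32.3 and 66.7% on day 0, on 6 to 120 calls. These levels read DNA, not expression, and do not check the cell type.

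The sequence context of the cytosines set what these values can say about imprints. Every deposited cytosine inside a RefSeq promoter window, 6492 to 10239 per library, was a GpC cytosine followed by A, C or T, and 0 were followed by G, although 20.3% of GpC cytosines in those windows are. CpG methylation, the mark that defines an imprint, is therefore not read in these windows, and the untreated level there is that of GpC cytosines outside CpG. An untreated read counted as methylated may also be a cytosine that bisulfite left unconverted. These values cannot tell it apart from methylation in the cell, at any locus or on either day. No genome sequence was used here, so the context outside promoter windows was not checked.

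Promoter stretches with treated reads are shown for 5 genes, chosen after their values were seen: Commd1 and Nnat because the same GpCs of their starts were read on both days, and H13, Peg3 and Igf2r because they show how far starts differ. RefSeq promoter windows (GRCm38.p6, 250 bases before to 50 after a start) were found for 33 of the 40 genes, and windows of 11 genes had treated reads, 4 windows on both days. The other 2 of those 4 are overlapping windows of Mest, with 2 of 6 methylated reads in day 1 treated replicate 2 and 4 of 6 in day 0 treated replicate 1, at different cytosines. Each stretch runs 5′ to 3′ on the gene's strand, and a capital is a base whose cytosine, on the printed or the opposite strand, was read in a treated library. Positions are counted from the first transcribed base as 0, and counts of reads cover the whole window, up to 50 bases from the start on.
Commd1, chr11:22982255-22982308, minus strand, -24 to 29: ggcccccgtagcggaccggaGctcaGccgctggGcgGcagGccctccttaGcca
Nnat, chr2:157559982-157560107, plus strand, -96 to 29: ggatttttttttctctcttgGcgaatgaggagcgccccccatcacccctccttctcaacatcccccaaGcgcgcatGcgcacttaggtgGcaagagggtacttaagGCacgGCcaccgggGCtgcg
H13, chr2:152669341-152669490, plus strand, -120 to 29: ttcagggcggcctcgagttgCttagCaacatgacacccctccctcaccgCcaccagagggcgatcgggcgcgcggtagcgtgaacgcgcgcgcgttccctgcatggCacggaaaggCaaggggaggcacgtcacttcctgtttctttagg
Peg3, chr7:6730394-6730452, minus strand, -33 to 25: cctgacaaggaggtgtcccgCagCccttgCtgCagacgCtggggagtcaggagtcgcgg
Igf2r, chr17:12769779-12769956, minus strand, -250 to -73: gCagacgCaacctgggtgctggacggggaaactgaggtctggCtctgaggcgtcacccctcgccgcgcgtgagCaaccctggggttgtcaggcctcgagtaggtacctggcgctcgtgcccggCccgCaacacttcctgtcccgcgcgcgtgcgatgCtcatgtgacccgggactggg

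At this annotated start of Commd1, a copper metabolism gene with the imprinted retrogene Zrsr1 inside it, 14 of 15 reads were methylated in day 1 treated replicate 2, against 14 of 18 reads in day 0 treated replicate 1. The 3 cytosines at 9, 12 and 16 were read on both days and had 3, 3 and 2 methylated reads of 3 on day 1 and 3 of 3 each on day 0. Most reads at the start of Commd1 were methylated in the 1 treated library of each day that read it, and no untreated library had a read in that window. At Nnat, which encodes the membrane proteolipid neuronatin and lies inside Blcap, 4 of 24 reads were methylated in day 1 treated replicate 2, against 0 of 12 reads in day 0 treated replicate 2. The 3 GpCs shown with both bases in capitals were read on one strand on day 1 and on the other on day 0, with 3 of 10 and 0 of 9 methylated reads. Among these stretches, chosen after their values were seen, Nnat had the lowest share of methylated reads on each day, in 1 library per day. Igf2r was close on day 1 with 5 of 22 reads, and on day 0 only Commd1, Nnat and Peg3 had treated reads.

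The other stretches rest on 1 library each. At H13, which encodes signal peptide peptidase, 15 of 18 reads were methylated in day 1 treated replicate 1. At the start of Peg3, a zinc finger gene, 10 of 15 reads were methylated in day 0 treated replicate 2, with 2 of 3 at each of the 5 cytosines; the same DNA lies 131 to 189 bases before the start of Usp29 on the other strand. At Igf2r, the receptor that clears insulin-like growth factor 2, 5 of 22 reads were methylated in day 1 treated replicate 2. Pooled over all promoter windows of imprinted genes, the treated level was 60.6 and 38.0% on day 1 (33 and 79 calls) and 53.7 and 36.1% on day 0 (54 and 36 calls), so the days overlapped. Promoters of other genes had 44.4 and 45.2% on day 1 and 49.99 and 50.9% on day 0. Without the enzyme, 0 of 192 calls in promoter windows of imprinted genes were methylated. Among them were 24 calls at Kcnq1ot1 and 24 at Meg3, starts that lie in or near control regions. With 3 calls taken as the limit for a count of 0, a level of up to 1.56% is allowed. That limit holds for independent calls only. These came several per cytosine in short stretches, so higher levels are not excluded.

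M.CviPI marked the imprinted loci on both days. Pooled over the 40 loci, the treated level was 30.5% (1178 of 3856 calls; 95% exact Clopper-Pearson interval 29.1 to 32.0) and 31.6% (1114 of 3528; 30.04 to 33.1) on day 1, and 29.1% (918 of 3151; 27.6 to 30.8) and 30.4% (812 of 2667; 28.7 to 32.2) on day 0. Both day 1 libraries were above both day 0 libraries, by less than the width of one library's interval, and such intervals cover counting error only. The untreated level was 0.728 and 0.842% on day 1 (39 of 5359 and 41 of 4872 calls) and 1.15 and 2.62% on day 0 (30 of 2613 and 54 of 2062 calls). The gap between treated and untreated libraries was 30.3 percentage points on day 1 and 27.9 on day 0 (exact permutation p = 0.333 each, the smallest that 2 against 2 libraries allow). All 22 imprinted loci with 20 calls in each day 1 library, and all 18 in each day 0 library, had both treated levels above both untreated ones, as 99.6% and 99.1% of all gene loci did.

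Between the days, the treated level of the imprinted loci averaged 31.1 ± 0.726% on day 1 and 29.8 ± 0.928% on day 0 (SD, n = 2 each), a difference of 1.27 percentage points (exact permutation p = 0.333). The difference was 0.617 points without day 0 treated replicate 1, 1.93 without day 0 treated replicate 2 and 0.76 without day 1 treated replicate 2, and it turned to -7.29 with cytosines of at least 5 reads alone. Other gene loci averaged 30.5% on day 1 and 29.3% on day 0, a difference of 1.19 points. The difference between those changes was 0.0809 points (exact permutation p = 1.0), and its sign turned with cytosines of at least 5 reads alone (-9.28), with cytosines read in every treated library (-0.887), without day 1 treated replicate 2 (-0.472), without day 0 treated replicate 1 (-0.657) and without the flanks (-0.064). The untreated level averaged 0.785 ± 0.0805% on day 1 and 1.88 ± 1.04% on day 0, a difference of -1.10 points, against -1.08 points at other gene loci. That of imprinted loci was -0.363 points without day 0 untreated replicate 2 and -1.83 without day 0 untreated replicate 1. The untreated change taken off the treated one left a net change of 2.37 points at imprinted loci and 2.27 points at other gene loci (exact permutation p = 0.0556 each, the smallest this design allows). The sign of the difference from other genes thus depended on the sites and libraries used. With 2 libraries per group, none of these permutation tests could pass 0.05.

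At the gene ends the groups overlapped. Treated levels within 1000 bp of the ends were 35.4 and 28.4% on day 1 (328 and 338 calls) and 32.9 and 37.2% on day 0 (380 and 231 calls), a difference of -3.18 points (exact permutation p = 0.667). Untreated levels there were 1.16 and 0.344% on day 1 and 0.73 and 2% on day 0. The treated difference was 0.304 points without day 1 treated replicate 2. Split by strand at the genes with a promoter entry, starts of imprinted genes had 42.9 and 27.1% on day 1 and 37.5 and 31.8% on day 0, and their transcript ends had 27.4 and 31.0% on day 1 and 25 and 66.7% on day 0, the last on 6 calls. Away from the ends the treated level was 30.1 and 31.9% on day 1 and 28.6 and 29.8% on day 0. Set against other genes within each treated library, whole imprinted loci were higher in 3 of 4 libraries, by 0.52 ± 0.754 points (SD; exact sign-flip permutation p = 0.375), and starts differed by -2.49 ± 6.68 points with 1 of 4 libraries higher (p = 0.375). Imprinted loci away from the ends were higher in 4 of 4 libraries, by 1.10 ± 0.902 points (SD; exact sign-flip permutation p = 0.125, the smallest 4 libraries allow), and imprinted gene ends differed by -1.52 ± 3.62 points with 2 of 4 libraries higher (p = 0.5). The sets away from the ends were not cut alike, since ends of other genes inside imprinted loci stayed in. Ends of other genes had treated levels of 34.4 to 35.7%, against 28.2 to 29.9% for other genes away from ends. The part of such ends in the gap of 1.10 points was not tested.

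**Figure D1:**
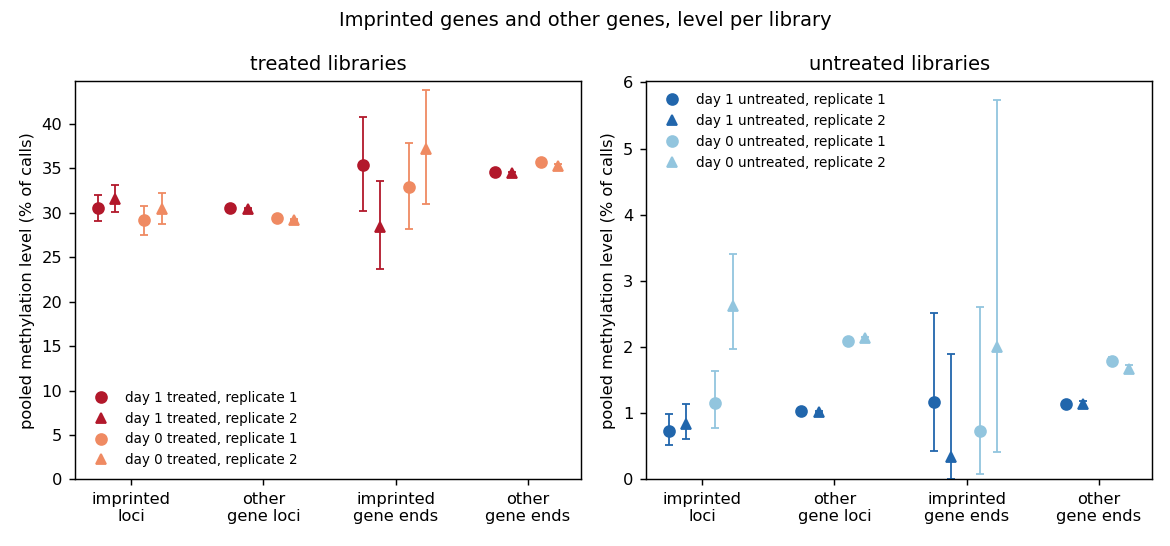
Pooled methylation level (percent of calls) per library at imprinted loci, other gene loci, imprinted gene ends and other gene ends, with 95% exact binomial intervals; treated libraries on the left panel, untreated on the right. Imprinted loci lie near 30% with the enzyme and under 3% without it, on the same side of each day difference as other gene loci, while the days overlap at imprinted gene ends.

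Reads were mixed at many single cytosines and uniform at others. Among cytosines of imprinted loci with exactly 3 reads, the treated libraries had 0 of 3 methylated at 34.1 and 33.3% of cytosines on day 1 and 40.1 and 32.6% on day 0. They had 1 of 3 at 41.6 and 43.9% on day 1 and 38.7 and 47.0% on day 0. Shares with 2 of 3 were 21.0 and 18.5% on day 1 and 17.4 and 17.2% on day 0. Those with 3 of 3 were 3.24 and 4.23% on day 1 and 3.82 and 3.18% on day 0. Other gene loci had 1 of 3 at 41.4 and 41.5% on day 1 and 40.6 and 40.7% on day 0, and 3 of 3 at 3.84 and 3.88% on day 1 and 3.91 and 3.80% on day 0. Fully methylated cytosines were thus rare at imprinted and other genes alike. Whether these shares differ from what the pooled level alone would give was not tested.

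By the parental copy known to be expressed, the loci were split into 22 paternally and 16 maternally expressed ones. Cytosines shared by loci of both classes were left out. Kcnq1ot1, Zrsr1 and Nnat lie wholly within loci of the other class and so gave no cytosine. The paternally expressed loci had treated levels of 31.0 and 30.4% on day 1 and 28.8 and 32.7% on day 0, which overlapped. The 16 maternally expressed loci had 30.1 and 32.8% on day 1 and 28.4 and 27.0% on day 0, a difference of 3.68 points with the days apart (exact permutation p = 0.333). Gnas and Ddc, in which the expressed copy depends on promoter or tissue, were left out of this split, and several genes of either class are imprinted only in placenta, brain or other tissues. The reads carry no allele, so these levels mix both copies.

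Of the 17 clusters, 14 had 20 calls in each treated library, and the treated levels of the days were apart in 5 of them. They were higher on day 1 in the Peg10-Sgce, Kcnq1-Cdkn1c, Snrpn-Ube3a and Zdbf2 clusters and lower in the Igf2r-Airn cluster. In 2 of them the nearest libraries of the days almost met. Kcnq1-Cdkn1c had 28.57 and 34.93% on day 1 and 27.94 and 28.46% on day 0. Igf2r-Airn had 28.31 and 26.90% on day 1 and 28.54 and 29.23% on day 0. Those 4 higher and 1 lower of 14 stand beside 21.8% higher and 13.4% lower among 7731 single gene loci, and no share over clusters of other genes was computed. None passed a test (exact permutation p = 0.333, adjusted p = 1.0 over the clusters). With 2 against 2 libraries 0.333 is the smallest p, so none could pass. The Peg10-Sgce cluster, which is expressed from the paternal chromosome in Peg10 and Sgce, had 32.3% (222 of 688 calls) and 40.4% (181 of 448) on day 1 and 23.7% (98 of 413) and 27.7% (86 of 311) on day 0, the widest gap at 10.6 points. The Snrpn-Ube3a cluster, the Prader-Willi and Angelman region, had 38.5 and 30.8% on day 1 and 28.6 and 25.9% on day 0, on 39 to 70 calls. Igf2-H19, the insulin-like growth factor 2 domain, had 36.5 and 33.3% on day 1 and 16.7% in day 0 replicate 1 (36 calls), with no read in day 0 replicate 2. Its treated days could not be tested. Without the enzyme, Peg10-Sgce had 1.04 and 1.63% on day 1 and 0.855 and 3.23% on day 0. Kcnq1-Cdkn1c had 0.766 and 0.399% on day 1 and 1.29 and 5.2% on day 0. Snrpn-Ube3a had 0.98 and 1.45% on day 1 and 5.88 and 0% on day 0. Igf2r-Airn had 0.627 and 0.763% on day 1 and 0.94 and 2.49% on day 0. Igf2-H19 had 2.68 and 2.5% on day 1 and 8.33 and 0% on day 0, with 24 and 9 calls on day 0.

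**Figure D2:**
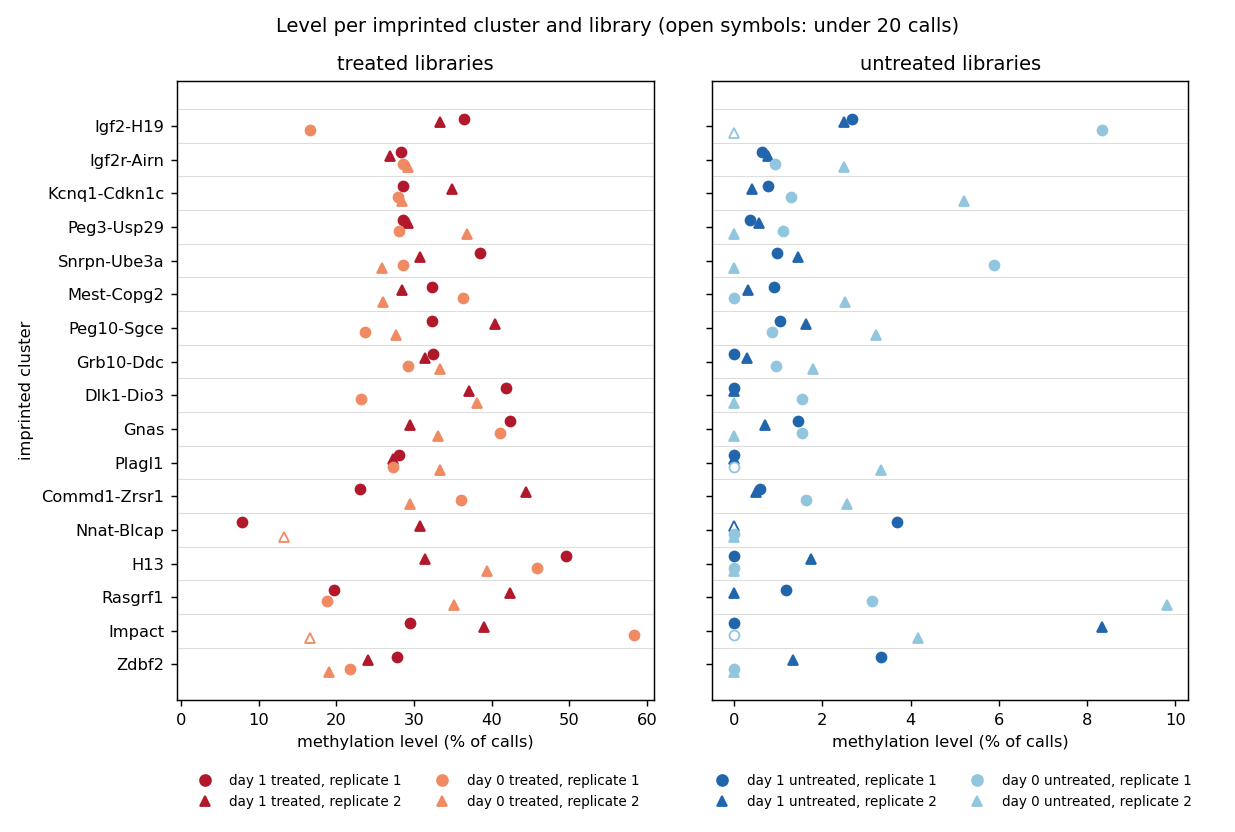
Methylation level (percent of calls) per imprinted cluster and library, treated on the left and untreated on the right; open symbols mark fewer than 20 calls. The Peg10-Sgce cluster has both day 1 treated libraries above both day 0 ones, and in the untreated panel most of the highest levels belong to day 0 libraries.

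Of the 40 imprinted loci, 20 had 20 calls in each of the 4 treated libraries and entered the fit over 7337 gene loci. The edgeR quasi-likelihood fit, adjusted over all loci with the Benjamini-Hochberg method, called 0 of the 20 and 0 of the 7337 (0%) at 0.05, where 245 loci had an unadjusted p under 0.05 and limma likewise called 0 (80 unadjusted). On simulated data of these libraries edgeR called 41 of 100 loci changed by 2 (log2 odds) and 1 of 100 changed by 1. Each simulated read was drawn on its own, and the spread from library to library was set at an SD of 0.3. Real reads came in short patches that mostly differed between libraries, which the simulation did not copy. How far these shares hold for real loci was not tested. Limma called 0 of 100 of either size, so that a count of 0 from limma says nothing here. Treated levels of the 20 loci ranged from 19.7 to 52.1% and from 20.9 to 66.7% in the day 1 libraries, and from 18.8 to 45.8% and from 17.7 to 45.5% in the day 0 libraries. Both day 1 levels were above both day 0 levels at 5 loci (Peg10, Sgce, Grb10, Rtl1 and Zdbf2), below them at 3 (Airn, Usp29 and Ddc) and overlapped at 12, against 21.8% higher and 13.4% lower among 7731 gene loci. In log2 odds the 20 loci had a median change of 0.15, against 0.10 over all loci. These counts describe loci of which Igf2r with Airn, Kcnq1 with Kcnq1ot1, and others share cytosines.

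**Figure D3:**
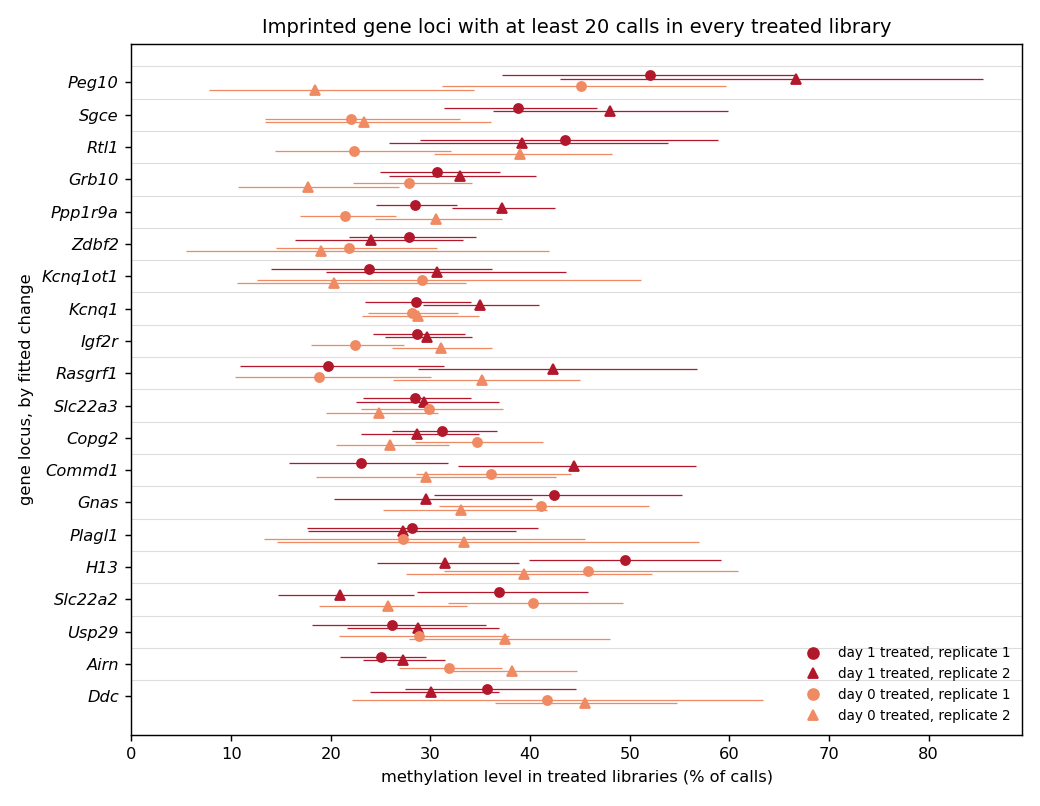
Methylation level in treated libraries (percent of calls) at the 20 imprinted loci with at least 20 calls in each, ordered by fitted change, with 95% exact binomial intervals. At Sgce, near the top, both day 1 libraries (38.8 and 48.0%) lie right of both day 0 libraries (22.1 and 23.3%); at Airn, near the bottom, they lie left of them.

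Sgce and Peg10 start next to each other and are read in opposite directions. Sgce encodes epsilon-sarcoglycan, mutated in myoclonus-dystonia, and had 38.8% (64 of 165 calls) and 48.0% (36 of 75) on day 1 and 22.1% (17 of 77) and 23.3% (14 of 60) on day 0. The change was 1.35 on the log2 odds scale (SE 0.65, edgeR adjusted p = 0.999). Sgce alone of the 20 imprinted loci had an unadjusted p under 0.05 in that fit, beside 245 of 7337 gene loci. Of its 20 day 1 treated patches, 1 overlapped one of its 16 day 0 patches, so that the 2 days were read on different stretches of the gene. Peg10, a retrotransposon-derived gene needed for the placenta, had 52.1% (25 of 48) and 66.7% (14 of 21) on day 1 and 45.1% (23 of 51) and 18.4% (7 of 38) on day 0 (change 1.48, SE 0.82, edgeR adjusted p = 0.999). Most of its day 1 reads lay within 1000 bp of the end next to Sgce, where 23 of 39 and 12 of 15 calls were methylated on day 1 and 5 of 9 in day 0 replicate 1, with no read in day 0 replicate 2. In the rest of the Peg10 locus the levels were 22.2 and 33.3% on day 1 (9 and 6 calls) and 42.9 and 18.4% on day 0 (42 and 38 calls). The days were thus apart at Peg10 as a whole and not in the part away from that end. Ppp1r9a, which encodes the actin-binding neurabin and lies farther along, had 28.5 and 37.2% on day 1 and 21.4 and 30.5% on day 0, which overlapped.

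In the Igf2r-Airn cluster the lncRNA and the receptor gene overlap and share cytosines. Airn, the paternally expressed lncRNA that silences Igf2r, Slc22a2 and Slc22a3 in cis, had 25.1 and 27.2% on day 1 (415 and 470 calls) and 31.8 and 38.1% on day 0 (330 and 236 calls), with both day 1 libraries lower (change -0.59, SE 0.39, edgeR adjusted p = 0.999). Where Airn lies outside Igf2r it had 23.8 and 24.4% on day 1 and 29.8 and 37.7% on day 0, and where both overlap 27.9 and 32.0% on day 1 and 35.2 and 38.5% on day 0. The whole Igf2r locus had 28.7 and 29.6% on day 1 and 22.4 and 31.0% on day 0, which overlapped. The part of Igf2r outside Airn was higher on day 1 in both libraries, with 29.1 and 28.1% on day 1 and 14.7 and 26.9% on day 0. The organic cation transporter genes overlapped between days. Slc22a2 had 36.9 and 20.9% on day 1 and 40.3 and 25.7% on day 0, and Slc22a3 had 28.4 and 29.3% on day 1 and 29.8 and 24.8% on day 0.

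The other loci whose days were apart had smaller or more thinly read gaps, and none passed the edgeR test. Grb10, a growth factor receptor adaptor that restrains growth, had 30.7 and 32.9% on day 1 and 27.9 and 17.7% on day 0. Rtl1, a retrotransposon-derived gene of the placenta, had 43.5 and 39.2% on day 1 and 22.3 and 39.0% on day 0. Zdbf2, a paternally expressed zinc finger gene, had 27.9 and 24.1% on day 1 and 21.8 and 19.05% on day 0, the last on 21 calls. These 3 were higher on day 1. Usp29, a ubiquitin protease gene, had 26.2 and 28.8% on day 1 and 28.8 and 37.5% on day 0, and the first of its day 0 libraries exceeded the second of day 1 by less than these digits show. Ddc, dopa decarboxylase, had 35.7 and 30.1% on day 1 and 41.7 and 45.5% on day 0, on 24 calls at the fewest.

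At the remaining 12 tested loci, Igf2r, Slc22a2, Slc22a3 and Ppp1r9a among them, the days overlapped. Kcnq1, a potassium channel gene, had 28.6 and 34.9% on day 1 and 28.1 and 28.8% on day 0, and its antisense lncRNA Kcnq1ot1 23.8 and 30.6% on day 1 and 29.2 and 20.4% on day 0, all within Kcnq1. Gnas, the stimulatory G protein gene, had 42.4 and 29.5% on day 1 and 41.1 and 33.1% on day 0. H13 had 49.5 and 31.4% on day 1 and 45.8 and 39.4% on day 0. Rasgrf1, a Ras exchange factor, had 19.7 and 42.3% on day 1 and 18.8 and 35.2% on day 0, and Commd1 23.1 and 44.4% on day 1 and 36.1 and 29.5% on day 0. At Gnas, H13 and Commd1 the day 1 libraries were farther from each other than from any day 0 library. Plagl1, a zinc finger growth regulator, had 28.1 and 27.3% on day 1 and 27.3 and 33.3% on day 0, and Copg2, a coatomer subunit gene, 31.2 and 28.7% on day 1 and 34.7 and 25.9% on day 0.

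The 20 other imprinted loci had too few reads for the fit. Ndn had no treated read in any library. Cdkn1c, Phlda2 and Ube3a had no treated read on day 1, and Magel2 none on day 0. Among the 20 are the 3 shortest imprinted genes, Phlda2, Ndn and Dio3, and also the longest, Snrpn, with 12 to 32 treated calls per library. Mest, a hydrolase-like gene of growing mesoderm, had 40.0 and 29.6% on day 1 (45 and 81 calls) and 41.4% in day 0 replicate 1 (70 calls), with 6 calls in day 0 replicate 2. Impact had 29.5 and 39.1% on day 1 (78 and 64 calls) and 58.3 and 16.7% on day 0 (36 and 6 calls). Meg3, a maternally expressed lncRNA, had 41.2% in day 1 replicate 2 (97 calls) and 16.7 and 41.8% on day 0 (36 and 55 calls). The others among them had at most 51 calls in any treated library.

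Without the enzyme, levels were low. Of 40 loci, 18 had 20 calls in each untreated library, and on the mean level 14 were lower on day 1, 3 higher and 1 (Mest) at 0 in all 4 libraries, against 70.2% lower and 25.8% higher among 7503 gene loci. The groups were apart at 8 loci, 7 lower on day 1 and 1 higher, against 30.1% lower and 5.68% higher among those gene loci. In log2 odds the 18 loci had a median change of -1.13, in which the value at 0 for Mest depends on the prior count, against -0.95 over all 7159 loci fitted. The edgeR fit called 1 of the 18 at an adjusted p of 0.05, Kcnq1, which was lower on day 1, and 268 of 7159 loci in all (3.74%), of which 265 were lower (3.7%) and 3 higher (0.0419%). With each library centred on its median locus, 13 loci and 0 imprinted ones were called, and Kcnq1 had a change of -1.43 (edgeR adjusted p = 0.601).

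Kcnq1 carried 4 of 516 and 2 of 498 methylated calls on day 1 (0.775 and 0.402%) and 4 of 309 and 13 of 247 on day 0 (1.29 and 5.26%). Both day 1 libraries were lower, and day 0 replicate 2 stood far above the other 3. The change was -2.34 on the log2 odds scale (SE 0.66, edgeR adjusted p = 0.0183). In day 0 replicate 2, 8 of the 13 methylated reads lay in 1 patch of 43 bp, chr7:143333655-143333697, with 8 of 15 reads methylated at 5 cytosines, and none of the other 7 libraries had a read there. Without that patch Kcnq1 had 2.16% in that library (5 of 232 calls). Kcnq1 was no longer called without day 0 untreated replicate 2 (-1.10, adjusted p = 0.73), day 1 untreated replicate 2 (-1.96, adjusted p = 0.126), day 1 treated replicate 1 (-2.33, adjusted p = 0.0572) or day 1 treated replicate 2 (-2.33, adjusted p = 0.0579). Nor was it called in a fit of the 4 untreated libraries alone (-2.31, adjusted p = 0.307). Where Kcnq1 overlaps Kcnq1ot1, 0 calls were methylated in all 4 untreated libraries, on 71 and 39 calls on day 1 and 91 and 3 calls on day 0.

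Kcnq1 also supplied 24.1% of the methylated untreated reads of all imprinted loci in day 0 replicate 2, and the pooled level of that library was 2.26% without it. The net change, in which the day effect with the enzyme is set against that without it, was called at Kcnq1 (2.57 on the log2 odds scale, SE 0.77, edgeR adjusted p = 0.0322), 1 of 17 imprinted loci tested, against 200 of 5655 loci in all (3.54%). Its treated change was 0.22 (SE 0.40), and its untreated change -2.34. That call was lost without any of 6 of the 8 libraries, with values between 1.32 without day 0 untreated replicate 2 and 2.77 without day 1 treated replicate 1. It was also lost with each library centred on its median locus (1.505, edgeR adjusted p = 0.70) and under limma (2.24, adjusted p = 0.132). The median net change over the 17 loci was 1.30, against 1.10 over all loci.

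Rasgrf1 had the widest untreated gap in level, with 1.18 and 0% on day 1 (2 of 169 and 0 of 165 calls) and 3.12 and 9.80% on day 0 (3 of 96 and 5 of 51 calls). Its change was -3.11 (SE 1.23, edgeR adjusted p = 0.149), and its net change 3.28 (SE 1.40, edgeR adjusted p = 0.182). Both had an unadjusted p under 0.05, beside 1083 of 7159 gene loci untreated and 974 of 5655 in net change. Neither Rasgrf1 change passed over all loci. Without day 1 untreated replicate 1, which leaves 0 methylated reads on day 1, the fitted changes were -5.82 (edgeR adjusted p = 0.127) and 5.99 (edgeR adjusted p = 0.136). Peg10 had a net change of 5.02 (SE 2.55, edgeR adjusted p = 0.287), on 0 of 41 and 0 of 35 untreated calls on day 1 and 0 of 30 and 3 of 33 on day 0. That value was 0.96 (adjusted p = 1.0) without day 0 untreated replicate 2, the one untreated library with methylated reads there, and 9.20 with libraries centred (adjusted p = 0.791), and as a fitted value against counts of 0 it depends on the prior count. Zdbf2 was the one locus higher without the enzyme on day 1 in both libraries, with 3 of 90 and 2 of 150 calls against 0 of 54 and 0 of 36 on day 0 (edgeR adjusted p = 0.505). The other loci lower in both day 1 libraries were Igf2r, Slc22a3, Grb10, Ddc and Commd1, with 10 or fewer methylated calls in any library. Igf2r had 0.645 and 1.32% on day 1 and 1.75 and 1.39% on day 0. Slc22a3 had 0.748 and 0% on day 1 and 1.12 and 3.17% on day 0. Grb10 had 0 and 0.49% on day 1 and 1.28 and 1.80% on day 0. Ddc had 0 and 0% on day 1 and 0.746 and 1.75% on day 0. These gaps rest on few methylated reads. Commd1 had 0.592 and 0.508% on day 1 and 1.64 and 2.56% on day 0. At Airn, Copg2, Gnas, H13, Ppp1r9a, Rtl1, Slc22a2 and Usp29 the untreated groups overlapped, as they did at Peg10, with levels at those 8 loci up to 1.75% on day 1 and 4.55% on day 0.

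**Figure D4:**
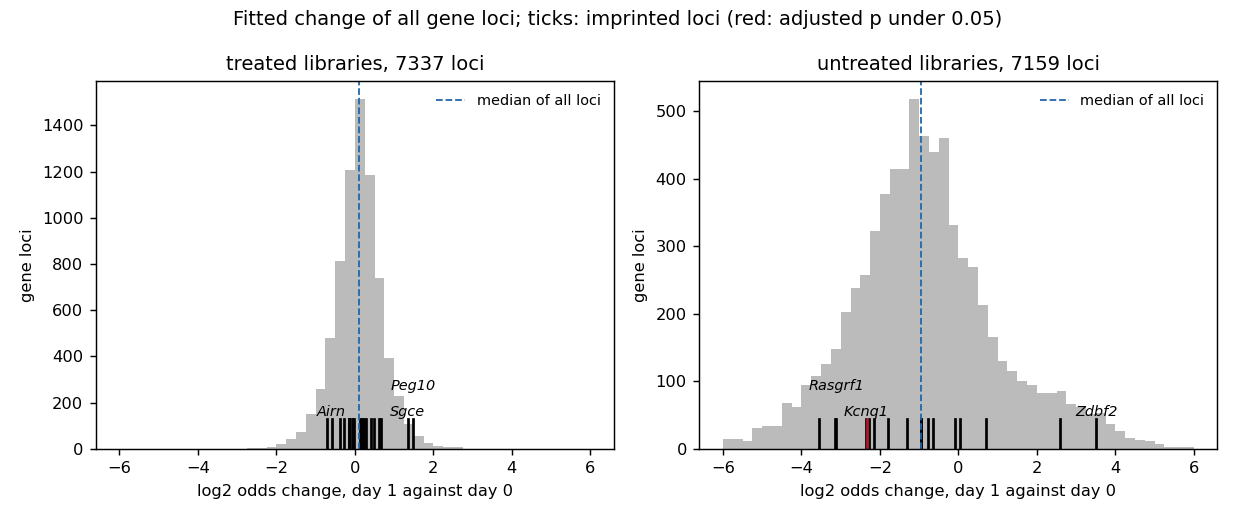
Fitted log2 odds change, day 1 against day 0, of all gene loci (grey counts, values beyond 6 drawn in the last bin) in treated libraries on the left and untreated on the right; ticks mark the imprinted loci, red where the adjusted p was under 0.05. The imprinted loci spread over the range of all loci around medians of 0.10 and -0.95, with Kcnq1 the one red tick.

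**Figure D5:**
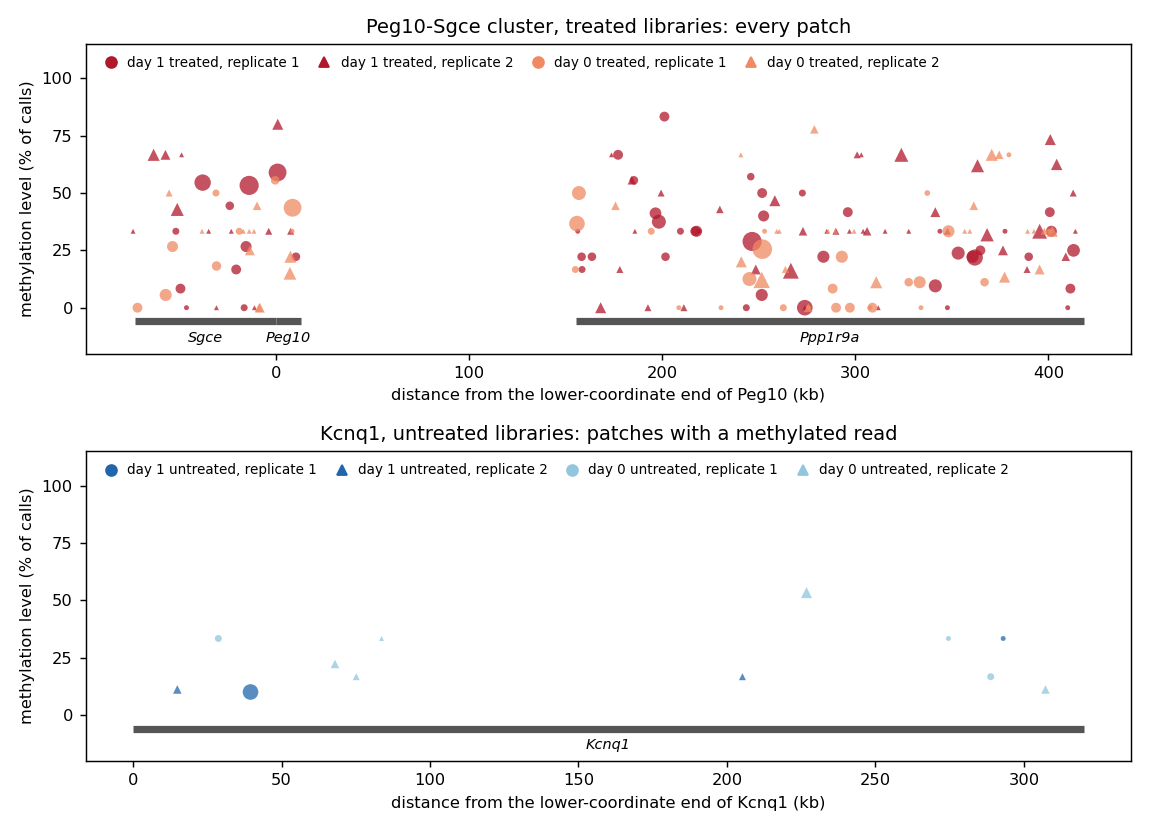
Level of each patch (percent of calls, symbol area in proportion to calls) by distance in kb, for the Peg10-Sgce cluster in treated libraries (above) and for untreated patches of Kcnq1 with a methylated read (below). Few patches of different libraries coincide, and the Kcnq1 patch with 8 of 15 methylated reads stands at 227 kb with one library alone.

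Of 37 other imprinted genes, 35 were matched, 16 entered the treated fit and 0 were called by edgeR in any of the 3 comparisons (median treated change 0.14, against 0.10 over all loci). Their median untreated change was -0.50, against -0.95 over all loci, and their median net change 0.43, against 1.10. With 0%, 3.74% and 3.54% of all loci called in the treated, untreated and net comparisons, 0 calls in lists this short is near the background. Of 20 genes of the imprinting machinery, such as the DNA methyltransferase Dnmt1 and the imprint-protecting zinc finger gene Zfp57, 12 entered the treated fit and 0 were called in any comparison (median -0.07). Of the marker lists, 3 fibroblast and 2 endothelial loci entered the treated fit with 0 called. The fibroblast gene Fn1 was the one gene of either list called in another comparison, lower without the enzyme on day 1 (edgeR adjusted p = 0.0121) and higher in net change (edgeR adjusted p = 0.0305). Pooled treated levels of the machinery genes were 32.5 and 30.6% on day 1 and 32.5 and 36.7% on day 0.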

How the data were processed

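NOMe-seq was measured in 8 libraries of 4 groups. The deposited files give per cytosine the fraction of methylated reads and the count of reads, as the authors computed them; both units were read from the values. Coordinates are mm10, per the submitters' processing notes; the aligner and caller: not given in the sources used here. Fraction times count gave whole methylated reads at every cytosine. These were pooled over gene coordinates from RefSeq (GRCm38.p6), which also gave the promoter sequences, leaving out cytosines over 100 reads (none at imprinted loci). The imprinted genes, clusters and other lists were chosen with earlier results of these data known. Pooled levels were compared by exact two-sided permutation over libraries. Methylated and unmethylated reads of loci with 20 calls in every library compared were fitted in edgeR 4.0.16 (R 4.3.3; quasi-likelihood, all 8 libraries, Benjamini-Hochberg at 0.05), with limma 3.58.1 as an alternative using 1 read added to each count; the edgeR fit was tested on simulated data. Loci with 20 calls in every treated or untreated library, called loci and loci with groups apart are named, and the promoter stretches beside them. Python 3.11.15 drew the levels and figures. Depth limits single loci to short patches.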

Additional observations from a re-analysis of the deposited data

Results flagged for a closer look

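The day effect at Kcnq1 differed between libraries with and without M.CviPI in the edgeR test of that difference (2.57 on the log2 odds scale, SE 0.77, adjusted p = 0.0322). Its treated levels were 28.6 and 34.9% on day 1 and 28.1 and 28.8% on day 0, and its untreated levels 0.775 and 0.402% on day 1 and 1.29 and 5.26% on day 0. Of the 13 methylated reads of day 0 untreated replicate 2, 8 lay in 1 patch that no other library read, and their part in the result was not tested. The change was 1.32 (adjusted p = 0.59) without that library. It was also not called with each library centred on its median locus (1.505, adjusted p = 0.70), under limma (2.24, adjusted p = 0.132) or under limma with centring (1.12, adjusted p = 0.816).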

How the results depend on the processing

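Of 87 alternatives to the pooled levels, 74 kept the sign and 13 did not. Permutation tests of the pooled levels could not pass 0.05 under any of them. The 74 overstate how stable the day differences were, since some alternatives could not change the sign. Lifting the limit on reads changed no level of imprinted genes, and a replicate block cannot move a difference of group means here. The 74 also include gaps between treated and untreated libraries, which are far wider than the day differences. Of 44 alternatives to the counts of called loci, 27 stayed within 1.5 times and 17 did not. Those 27 overstate how stable the counts were. They include treated counts that stayed at 0, where a factor of 1.5 says nothing, those from limma among them. For the untreated count, more alternatives fell outside 1.5 times than stayed within it. For the net count, as many fell outside as stayed within. With only cytosines of at least 5 reads, the treated day difference of imprinted loci was -7.29 points, the net change -5.70 and the difference from other gene loci -9.28. With only cytosines read in every library compared, the untreated difference was 0.0 (7 cytosines), the net change -7.50 (1 cytosine) and the difference from other loci -0.887 (12 cytosines); imprinted gene ends had no such cytosine. The untreated difference of the ends was 0.746 within 500 bp of them. The difference from other loci was -0.064 without flanks and -0.291 with each patch counted once, which was added after the spacing of the sites was seen. Leaving out single libraries gave -6.66 to 0.304 for treated ends, -1.25 to 0.0233 for untreated ends and -0.657 to 0.819 for the difference from other loci. Among gene loci, the treated fit of 4 libraries alone called 3. The untreated count of 268 was 891 with limma, 7 with limma after centring, 13 with edgeR after centring, 17 with 4 libraries and 129 to 186 without single libraries. The net count of 200 was 1 with limma, 0 with limma after centring (380 loci with an unadjusted p under 0.05), 4 with edgeR after centring and 14 to 195 without single libraries. Under limma, Grb10, Slc22a3, Rasgrf1 and Kcnq1 passed untreated, 4 of 18 imprinted loci, beside 891 of 7159 gene loci in all. After centring, limma called 7 loci and 0 imprinted ones. The untreated change of Airn was -5.67 (edgeR) without day 1 untreated replicate 2, which leaves 0 methylated reads there on day 1. Same-numbered libraries did not deviate together locus by locus (r from -0.0242 to 0.0192 over 5655 loci). With so few reads per locus this correlation could miss a real pairing, so whether the numbers mark shared cultures is unknown. The replicate block leaves the pooled treated difference at 1.27 by construction, since every group holds a library of each number. The untreated count was then 202 and the net count 135, without Kcnq1 (edgeR adjusted p = 0.0587). With at most 13 reads at any cytosine, single loci were limited to large changes.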
